A study of Mus musculus with 6 samples.

Results

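A set of 9 hair bundle genes was followed in dorsal root ganglia (DRGs) of mice that lack the homeobox gene Tlx3 in most nociceptors. They are Grxcr1, Grxcr2, Tmc1, Tmc2, Tmie, Lhfpl5, Cib2, Whrn and Myo7a, 9 of the 47937 rows of the gene table, and all 9 passed the filter on low counts. The set was chosen by the measured level of Grxcr2, which was strongly higher in these same libraries, and by the known function of the other 8 genes in stereocilia. Values of Grxcr2 are therefore given as a description without a test. The other 8 genes and the lists below were chosen with earlier results of these data known. Counts of calls among them are therefore descriptions too. The 6 libraries, 3 a genotype, held total RNA of ganglia from neck to lumbar levels of young adult C57BL/6 mice (about 2 months). Control mice carried the genotype that the labels call wild type. The other mice were Tlx3f/f;SNS-cre, that is, floxed Tlx3 deleted by Cre under control of the Nav1.8 (SNS) sodium channel gene, and are called Tlx3cko as in the study. The Cre acts in most nociceptive neurons from late embryonic life, so other DRG neurons and glia in the same RNA kept the gene. Tlx3 fell from 2057 ± 173 normalized counts (SD, n = 3) in control to 1495 ± 141 in Tlx3cko DRGs (log2 fold change -0.46, adjusted p = 0.0122, edgeR), and the call was lost in 4 of 14 alternative analyses (leaving out control replicate 2, Tlx3cko replicate 2 or Tlx3cko replicate 3, or keeping control replicate 3 alone). In the last of these the spread comes only from the Tlx3cko libraries, and the log2 fold change was -0.38 (adjusted p = 0.175, edgeR).

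Hair cells of the inner ear carry a bundle of actin-filled stereocilia on their apical surface. Sound or head movement bends the bundle, tip links of cadherin 23 and protocadherin 15 pull on the tips, and a channel complex of TMC1 or TMC2 with TMIE, LHFPL5 and CIB2 opens. GRXCR1 and GRXCR2 are glutaredoxin-like cysteine-rich proteins needed for the shape of stereocilia, whirlin (Whrn) is a PDZ scaffold at stereocilia tips and at the ankle links near their base, and myosin VIIa (Myo7a) is a motor that carries bundle proteins. Mutations in several of these genes cause deafness. DRGs hold no hair cells, but their neurons include mechanoreceptors and proprioceptors, and whirlin has been described in proprioceptive neurons.

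Libraries held between 11458299 and 18775628 counts. Normalized counts below were brought to a common library size of 14970767 counts, and fold changes are Tlx3cko over control from edgeR. Differences past an adjusted p of 0.05 (edgeR, quasi-likelihood F test, Benjamini-Hochberg over 20006 genes) are written as changes. With 3 libraries against 3, the smallest p that an exact two-sided permutation test of 1 gene can give is 0.1. Xist, expressed in female cells, reached 591 and 493 counts in control replicates 1 and 2 and at most 2 elsewhere. Ddx3y, a Y-linked gene, was at 0 in those controls and at 273 to 525 in the other 4 libraries. Sex thus differed between most controls and the Tlx3cko mice, and the values of Grxcr2 and Whrn are also given against control replicate 3 alone. The skeletal muscle marker list summed to 2025, 549 and 106 normalized counts in control replicates 1, 2 and 3. In Tlx3cko libraries the sums were 1571 to 2857. Of its 7 genes, 1 (Myh4) passed the threshold, as higher in Tlx3cko, against 1.69% of all genes tested. As these are bulk samples, fewer cells of a type and less RNA per cell cannot be told apart.

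The 250 bases before the transcript start (RefSeq, GRCm38.p6, gene strand, 5′ to 3′) are shown for Whrn, the scaffold gene that rose in Tlx3cko DRGs, and for Cib2, the most abundant of the genes in control DRGs per kilobase, for which no difference passed the test. RefSeq windows were read for 7 of the 9 genes; those of Grxcr2 and Tmc2 are not shown. Capitals mark the GC box GGGCGG and the CRE core TGACGT on either strand, motifs that were chosen after the windows had been read.
Whrn, chr4:63495992-63496241, minus strand: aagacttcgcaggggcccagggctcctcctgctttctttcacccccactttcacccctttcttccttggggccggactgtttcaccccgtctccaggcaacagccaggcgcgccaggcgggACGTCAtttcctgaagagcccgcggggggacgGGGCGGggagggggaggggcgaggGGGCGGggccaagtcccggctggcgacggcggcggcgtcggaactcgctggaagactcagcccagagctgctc
Cib2, chr9:54560191-54560440, minus strand: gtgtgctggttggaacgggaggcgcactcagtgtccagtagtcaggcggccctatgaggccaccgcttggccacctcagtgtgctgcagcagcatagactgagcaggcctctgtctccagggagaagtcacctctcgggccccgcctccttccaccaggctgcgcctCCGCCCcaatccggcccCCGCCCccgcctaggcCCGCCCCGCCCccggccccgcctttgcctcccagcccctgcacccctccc
The windows of Whrn, Cib2 and Lhfpl5 (the last not printed) were alike in base composition. GC content was 69.6% for Whrn, 70.8% for Lhfpl5 and 71.2% for Cib2, against a median of 52.4% over 32851 such windows, and they held 21, 24 and 15 CpG pairs against a median of 6. GC boxes numbered 2 for Whrn, 1 for Lhfpl5 and 4 for Cib2, and 32.7% of all windows held at least 1. The CRE core was present in Whrn and absent from the letters of the other 2 windows, and 6.47% of all windows held it. TAATTA, a core motif of many homeodomain factors, and the TATA box TATAAA were found in none of the 3 windows on either strand. Of all windows, 4.84% held the first and 12.4% the second. Among the other windows, that of Tmie was as rich in GC (74.8%, 33 CpG pairs and 3 GC boxes), and those of the 2 Myo7a starts were at 63.2% and 57.6%. Those of Grxcr1 and Tmc1 were poorer (42.8% and 41.2%), and that of Grxcr1 held 1 TAATTA.

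Grxcr2 and Whrn were far higher in Tlx3cko than in control DRGs, whereas none of the 5 channel complex genes, the motor Myo7a or the close relative Grxcr1 passed the test. Of the 8 genes other than Grxcr2, 1 rose, 0 fell and 7 did not pass the test. Of all genes tested, 4.25% passed, 1.69% as higher and 2.56% as lower in Tlx3cko. In 2 of the 8, Whrn and Lhfpl5, the groups did not overlap, which is 25% against 19.7% of all genes tested. The median log2 fold change of these 8 genes was 0.06, against -0.00 over all genes.

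**Figure D1:**
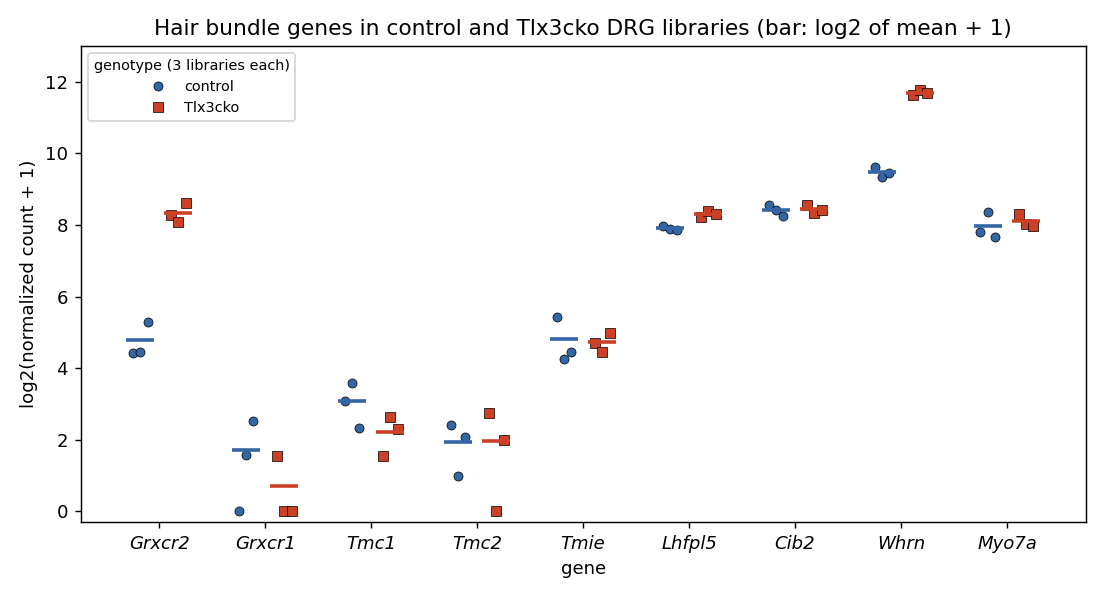
Normalized counts of the 9 hair bundle genes in each DRG library, on a log2(normalized count + 1) axis, with circles for the 3 control and squares for the 3 Tlx3cko libraries; bars show the group mean on the same scale. Grxcr2 and Whrn are the genes whose Tlx3cko points lie far above their control points (272 to 389.7 against 20.5 to 38.3, and 3148 to 3490.5 against 648 to 778 normalized counts).

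Grxcr2 (ENSMUSG00000073574; GRCm38 chromosome 18, 41985323 to 41999049, minus strand) encodes a stereocilia protein with a glutaredoxin-like domain. Its raw counts were 19, 21 and 48 in the controls (replicates 1 to 3, the order used throughout), against 323, 207 and 396 in the Tlx3cko libraries. Normalized, the controls were at 20.5, 20.9 and 38.3 and the Tlx3cko libraries at 311, 272 and 389.7. Every Tlx3cko library was far above every control library, and control replicate 3 lay above the other controls. The means were 26.6 ± 10.1 and 324 ± 60.1 normalized counts (SD, n = 3), a ratio of 12.2 and a log2 fold change of 3.57. Of the 20006 genes, 31 had a larger log2 fold change. These values chose the set and carry no test here. The log2 difference of Grxcr2 came to 3.96 without control replicate 3 and to 3.08 against control replicate 3 alone, which is the control with Y-linked counts and the lowest muscle marker sum.

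Grxcr1 (ENSMUSG00000068082; chromosome 5, 68031835 to 68166398, plus strand), the closest relative of Grxcr2 and likewise needed for stereocilia, was barely detected. Controls had 0, 2 and 6 counts and Tlx3cko libraries 2, 0 and 0, and its total of 10 was exactly the minimum for testing. The log2 fold change of -1.61 had a 95% interval from -4.75 to 1.52 (adjusted p = 0.707, edgeR), a wide interval that includes 0. The other glutaredoxin genes of the cell, Glrx, Glrx2, Glrx3 and Glrx5, which serve thiol redox reactions and iron-sulphur cluster assembly, were all readily detected. None of the 4 passed the test, with log2 fold changes between -0.09 and 0.09. Glrx was at 144 ± 6.64 and 154 ± 27.1 normalized counts (SD, n = 3), and Glrx3 at 1805 ± 122 and 1696 ± 64.8, in control and Tlx3cko DRGs.

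Whrn (ENSMUSG00000039137; chromosome 4, 63414910 to 63495991, minus strand), the whirlin scaffold, was covered by 721, 650 and 880 raw counts in the controls, against 3271, 2660 and 3341 in the Tlx3cko libraries. Normalized, these were 778, 648 and 702 against 3148, 3490.5 and 3288. The groups did not overlap, and the lowest Tlx3cko library was far above the highest control. Whrn rose from 709 ± 65.3 to 3309 ± 172 normalized counts (SD, n = 3), a ratio of 4.66. On the log2 scale the change was 2.22 (standard error 0.09, 95% interval 2.03 to 2.42, adjusted p = 2.6e-08, edgeR). Of the 20006 genes, 1 had a smaller p and 127 had a larger log2 fold change. Those 127 include Grxcr2, whose values chose the set. The call held in all 14 alternative analyses, with log2 fold changes from 2.16 to 2.29. Against control replicate 3 alone the log2 fold change was 2.23 (adjusted p = 1.13e-05, edgeR), where the spread comes only from the Tlx3cko libraries and the lone control is assumed to vary like them. No annotated gene overlaps the exons of Whrn, and no near-identical transcript was found for it. Counts per gene do not separate the long and short forms of whirlin.

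**Figure D2:**
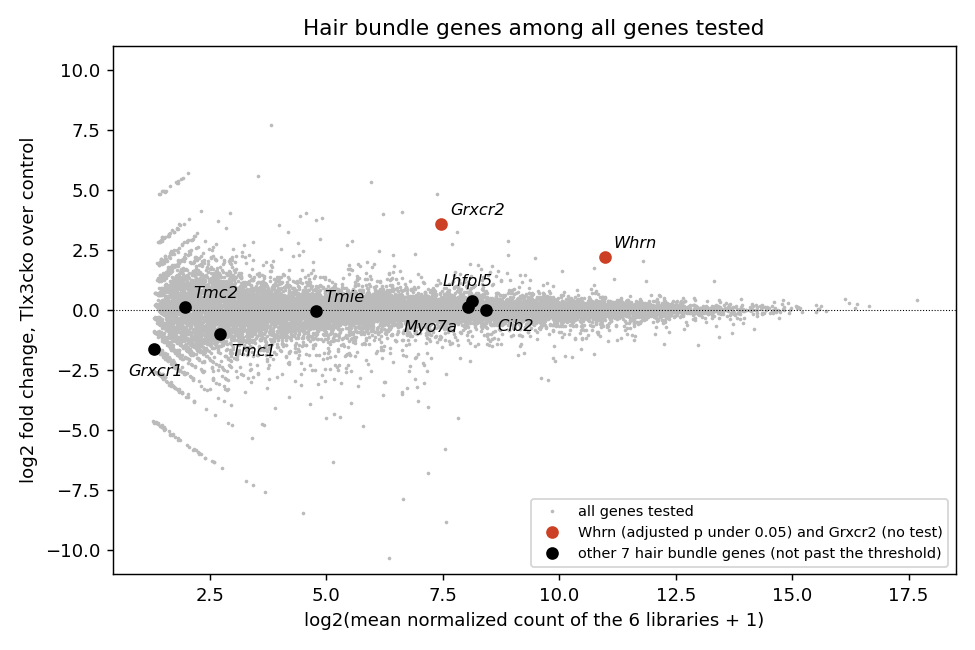
Log2 fold change (Tlx3cko over control) of each of the 20006 genes tested, against log2 of the mean normalized count of the 6 libraries plus 1; grey points are all genes, and the 9 hair bundle genes are named. Whrn is set apart by a large change at a high level (log2 fold change 2.22), Grxcr2 lies at 3.57, and the other 7 lie between -1.61 and 0.39.

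Lhfpl5 (ENSMUSG00000062252; chromosome 17, 28575641 to 28585679, plus strand), the tetraspan subunit that links the channel to protocadherin 15, was the next in size of difference among well-detected genes. The controls were at 251, 235 and 232 normalized counts, and the Tlx3cko libraries at 295, 333 and 314. The groups did not overlap, and their means were 239.7 ± 10.4 and 314 ± 18.9 (SD, n = 3), a ratio of 1.31. On the log2 scale this was 0.39 (95% interval 0.12 to 0.66), with an unadjusted p of 0.00836 and an adjusted p of 0.122 (edgeR), which ranged from 0.0894 to 0.346 over the alternatives. The difference in Lhfpl5 therefore did not pass the test across all genes.

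Cib2 (ENSMUSG00000037493; chromosome 9, 54544794 to 54560218, minus strand), the calcium- and integrin-binding subunit, stood at 379, 343 and 304 normalized counts in the controls, against 372, 319 and 343 in the Tlx3cko libraries. The ranges overlapped almost entirely. With a log2 fold change of 0.02, Cib2 had a 95% interval from -0.26 to 0.29 (adjusted p = 0.975, edgeR). Part of the Cib2 exons (15.8%) overlaps Sh2d7 on the other strand, and strand use in counting is not given in the sources used here, so reads of the pair cannot be told apart there. Tmie (ENSMUSG00000049555; chromosome 9, 110865711 to 110880113, minus strand), the transmembrane subunit near the pore, drew 39, 18 and 26 counts in the controls, against 26, 16 and 31 in the Tlx3cko libraries. The log2 fold change of Tmie was -0.06 (95% interval -0.94 to 0.82, adjusted p = 0.972, edgeR), an interval too wide to exclude a change of moderate size, and 7.89% of its exons overlaps Als2cl on the other strand.

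The pore genes Tmc1 and Tmc2 were close to the limit of detection. Tmc1 (ENSMUSG00000024749; chromosome 19, 20783458 to 20954202, minus strand) drew 7, 11 and 5 counts in the controls, against 2, 4 and 4 in the Tlx3cko libraries. The log2 fold change of -1.01 had a 95% interval from -2.74 to 0.72 (adjusted p = 0.658, edgeR). Tmc2 (ENSMUSG00000060332; chromosome 2, 130195194 to 130264445, plus strand) drew 4, 1 and 4 counts in the controls, against 6, 0 and 3 in the Tlx3cko libraries. A log2 fold change of 0.11 had a 95% interval from -2.17 to 2.39 (adjusted p = 0.981, edgeR) and turned negative in 5 of 13 alternatives. Both intervals include 0 and were wide.

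Myo7a (ENSMUSG00000030761; chromosome 7, 98051060 to 98119524, minus strand), the myosin that binds the Usher type 1 proteins, was at 223, 329 and 203 normalized counts in the controls, against 315, 262 and 249 in the Tlx3cko libraries. The Tlx3cko values all fell within the control range. Myo7a had a log2 fold change of 0.13 (95% interval -0.26 to 0.53, adjusted p = 0.834, edgeR).

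Divided by exon length, the levels gave the following order within each genotype, in normalized counts per kilobase. In control DRGs Cib2 was highest (239 ± 26.2, SD, n = 3), followed by Lhfpl5 (100.4 ± 4.34) and Whrn (96.7 ± 8.90), whose ranges overlapped. Below them came Myo7a (29.4), Grxcr2 (13.3) and Tmie (8.70), the last pair overlapping, and then Grxcr1, Tmc1 and Tmc2 at 0.882 to 2.11, which overlapped each other in sequence. In Tlx3cko DRGs Whrn was highest (451 ± 23.5) and lay above Cib2 (241 ± 18.7) without overlap. Grxcr2 came next at 162 ± 30.1 and overlapped Lhfpl5 at 132 ± 7.92. Myo7a (32.1) and Tmie (8.24) followed, and Tmc2, Grxcr1 and Tmc1 were again lowest at 0.515 to 0.905. The channel genes thus had a pair of abundant accessory subunits, Cib2 and Lhfpl5, beside pore genes at or below about 1 normalized count per kilobase in both genotypes.

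The rest of the stereocilium was examined through 40 further genes chosen by function, of which 36 could be tested. None passed the test with edgeR, DESeq2 or limma-voom, against 4.25% of all genes with edgeR. At an unadjusted p under 0.05, 1 was higher (Pdzd7) and 3 were lower (Pcdh15, Triobp and Tmc3), 11.1% of the 36 against 14.5% of all genes. In 7 of the 36 (19.4%) the groups did not overlap, against 19.7% of all genes. The median log2 fold change was 0.04, with 21 positive and 15 negative values between -1.32 and 1.56. Ush1c, the harmonin scaffold, had 0 counts in every library, and Myo3a and Pjvk had too few counts to test.

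None of the genes for ankle link proteins, which bind whirlin, passed the test. Adgrv1, the large adhesion receptor of the ankle links, drew 3, 2 and 7 counts in the controls, against 6, 9 and 0 in the Tlx3cko libraries. Pdzd7, the PDZ protein most like whirlin, was at 166 ± 11.3 and 219 ± 21.7 normalized counts (SD, n = 3) in control and Tlx3cko DRGs. Its groups did not overlap, but its log2 fold change of 0.40 did not pass the test (adjusted p = 0.216, edgeR). Clrn1, the small membrane protein of Usher type 3, had a log2 fold change of 0.04 (adjusted p = 0.967, edgeR). Of the partners of whirlin at stereocilia tips, the motor Myo15 and the actin regulator Eps8 had log2 fold changes of -0.20 each (adjusted p = 0.888 and 0.835, edgeR). The polarity genes Gnai3 and Gpsm2, the most abundant of the tip elongation genes per kilobase, had -0.15 and 0.05 and did not pass.

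Of the proteins placed with GRXCR2 near the base of stereocilia, taperin (Tprn) was at 201 ± 27.5 and 191 ± 13.4 normalized counts (SD, n = 3) in control and Tlx3cko DRGs, with a log2 fold change of -0.08 (adjusted p = 0.896, edgeR). The chloride channel-like protein Clic5 was at 72.5 ± 24.8 and 68.3 ± 26.2, and the membrane linker radixin (Rdx) at 1183 ± 132 and 1270 ± 7.07. Neither passed the test. The phosphatase gene Ptprq drew 8, 7 and 6 counts in the controls, against 16, 11 and 16 in the Tlx3cko libraries, without overlap after normalization (log2 fold change 1.16, adjusted p = 0.359, edgeR).

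The tip link gene Pcdh15 drew 21, 27 and 54 counts in the controls, against 17, 10 and 8 in the Tlx3cko libraries. These were 30.9 ± 10.8 and 12.5 ± 4.28 normalized counts (SD, n = 3), and the groups did not overlap, but the log2 fold change of -1.32 did not pass the test (adjusted p = 0.137, edgeR). Cdh23, its partner in the tip link, was at 19.9 ± 4.98 and 22 ± 5.18. Of the other Tmc genes, which are not known to form the hair cell channel, Tmc6 was most abundant per kilobase (659.6 ± 67.3 and 686 ± 58.1 normalized counts) and Tmc3 next (615 ± 79.9 and 499 ± 78.5). Tmc3 had a log2 fold change of -0.30 (adjusted p = 0.320, edgeR), and 43.9% of its exons overlaps Gm16638 on the other strand. Tomt, which is needed to place TMC proteins in stereocilia, was at 859 and 883 normalized counts, but 69.3% of its exons overlaps Anapc15 on the other strand. Cib3, a relative of Cib2, had at most 8 counts in any library.

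Actin bundling genes are not particular to stereocilia, and several were abundant. Pls3, a plastin, was at 3553 ± 242 and 3299.8 ± 195 normalized counts (SD, n = 3) in control and Tlx3cko DRGs, and Fscn1, fascin, at 459 ± 80.3 and 432 ± 23.1. Triobp, which makes stereocilia rootlets, was at 252 ± 25 and 179.9 ± 23.7 without overlap, and missed the threshold (log2 fold change -0.49, adjusted p = 0.119, edgeR). Xirp2, which is also a muscle protein, drew 29, 7 and 0 counts in the controls, against 29, 27 and 46 in the Tlx3cko libraries. The controls had the same order in Xirp2 as in the muscle marker sums (2025, 549 and 106), whereas the Tlx3cko libraries had the reverse order, at 27.9, 35.4 and 45.3 normalized counts of Xirp2 and muscle sums of 2857, 2468 and 1571. The log2 fold change of 1.56 did not pass the test (adjusted p = 0.395, edgeR). It did pass without a filter on low counts (adjusted p = 0.0164), without control replicate 1 (3.44, adjusted p = 0.0298) and against control replicate 3 alone (adjusted p = 0.00741), a comparison with a single control library at 0 counts whose spread comes only from the Tlx3cko libraries. The part of muscle RNA in these values was not tested. Of the remaining genes, Ush1g, Elmod1 and Strc had log2 fold changes of 0.35, 0.33 and 0.30 and did not pass.

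**Figure D3:**
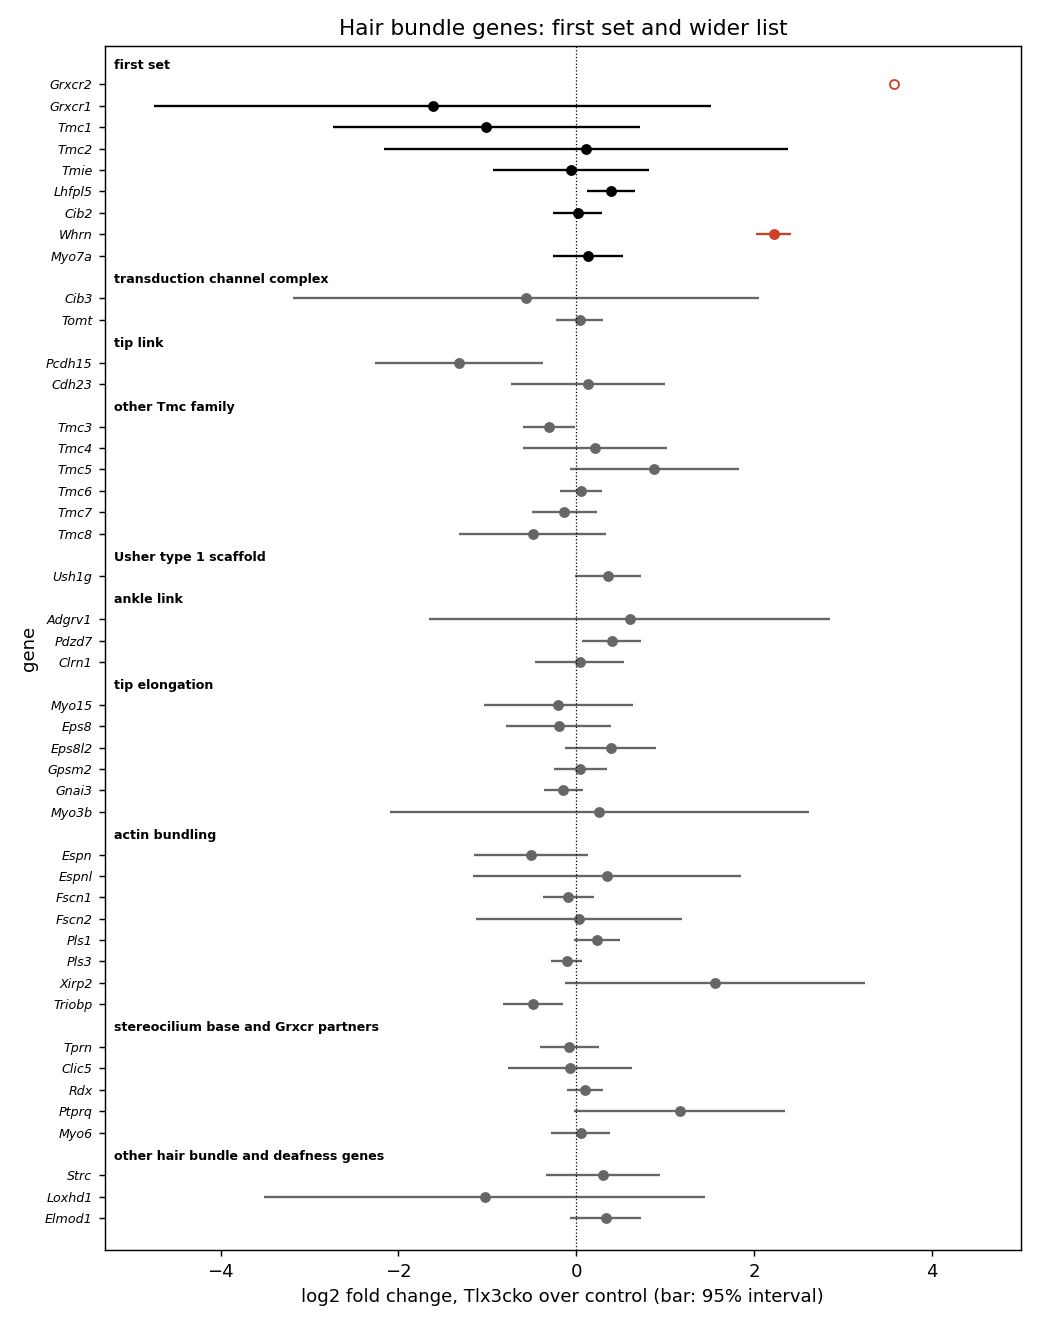
Log2 fold change (Tlx3cko over control) with its 95% interval for the 9 hair bundle genes (first set) and for the 36 tested genes of the wider stereocilia list, grouped by role; Grxcr2 is an open circle without an interval because its values chose the set. Whrn, at 2.22 with an interval from 2.03 to 2.42, is the filled point in colour that passed the test, and none of the 36 genes of the wider list did.

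The labelled tissue was checked against marker lists, in which sensory neuron genes were abundant and genes that define hair cells mostly missing. Atoh1 and Cabp2 had 0 counts in every library, and Slc26a5 (prestin), Ocm and Chrna9 had at most 1. Of the 12 hair cell markers 6 could be tested, 0 rose and 1 fell, against 1.69% and 2.56% of all genes tested. That gene was Slc17a8, a vesicular glutamate transporter gene that some low-threshold DRG neurons also use, at 156 ± 61.9 and 42.6 ± 6.85 normalized counts (SD, n = 3; log2 fold change -1.88, adjusted p = 0.00276, edgeR). Pou4f3, a transcription factor of hair cells and of DRG neurons, was at 542 ± 50.3 and 662 ± 33.6 and did not pass (adjusted p = 0.189, edgeR). The list summed to 916 to 1096 normalized counts in control and 941 to 1091 in Tlx3cko libraries, so the sums overlapped. The 10 sensory neuron markers summed to 170130 to 179680 in control and 188827 to 197456 in Tlx3cko libraries, without overlap. The list did not move as a whole, since 5 of the 10 had positive log2 fold changes and the median was 0.02. Of these genes, 2 rose (Nefh and Scn10a) and 1, Tlx3 itself, fell, against 1.69% and 2.56% of all genes tested. In 8 of the 10 the groups did not overlap, against 19.7% of all genes tested. Among these 8, Nefh, Scn10a, Tubb3 and Snap25 were higher in Tlx3cko, and Avil, Prph, Pou4f1 and Tlx3 were lower. Satellite glia markers summed to 40112 to 48844 and 47276 to 52084, and Schwann cell markers to 34824 to 42197 and 37574 to 42485, in control and Tlx3cko libraries. The sums of blood (1427 to 3719 and 1694 to 2295), immune (552 to 687 and 499.5 to 594) and spinal cord markers (107 to 172 and 65.6 to 187) overlapped between the genotypes. No blood or immune marker passed the test, but all had negative log2 fold changes (medians -0.32 and -0.49). Of the single genes in the glial and spinal cord lists, Egr2 of the Schwann cell list rose (log2 fold change 0.81, adjusted p = 0.0241, edgeR) and Pax2 of the spinal cord list fell, from 27 to 4.01 normalized counts (log2 fold change -2.65, adjusted p = 0.0164, edgeR). Vessel and connective tissue markers summed to 3222 to 3493 in control and 2597 to 2831 in Tlx3cko libraries, without overlap. Of these 6 genes, 1 rose (Pecam1) and 3 fell (Col1a1, Dcn and Pdgfra), against 1.69% and 2.56% of all genes tested. The part of these tissues in the values of Grxcr2 and Whrn was not tested.

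Because whirlin is known in proprioceptors, 6 genes of those neurons were read after the level of Whrn had been seen. Of these, 1 of 6 rose, against 1.69% of all genes, namely Pvalb (parvalbumin), with controls at 1101, 885 and 819 normalized counts and Tlx3cko libraries at 1581, 1285 and 1347. The groups did not overlap, and the log2 fold change came to 0.59 (standard error of 0.12, adjusted p = 0.0116, edgeR). Runx3, Ntrk3, Spp1 and Heg1 had log2 fold changes between 0.19 and 0.28 and Etv1 had -0.36, and none of these passed the test. The 6 genes summed to 5730 to 7187 normalized counts in control and 7010 to 7666 in Tlx3cko libraries, and Ntrk3 made up the largest share of the sum (2865 and 3445 on average). The part of proprioceptors in the values of Whrn was not tested.

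Among 13372 genes at mean levels of 50 normalized counts or more, those whose log2 levels followed Grxcr2 most closely over the 6 libraries were Gfra3, Prima1, Sez6, Nefl and Cd300lg, with Pearson correlations from 0.992 to 0.996. The 6 points fall into the genotypes, so these values largely restate a difference between genotypes of any size. Gfra3, the artemin receptor of nociceptors, was at 780 and 2635 normalized counts in control and Tlx3cko DRGs (log2 fold change 1.75), whereas Nefl, a neurofilament gene, had a log2 fold change of 0.23. Taken as deviations from the genotype means, the closest genes were Stam, Dysf, Paqr3, Dnttip2 and Fancm (0.990 to 0.997), with log2 fold changes between -0.14 and 0.18. For Whrn, to which the same rule was applied after its values were seen, the closest genes by level were Oprl1, Asic1, Nrcam, Lama1 and Inf2 (0.994 to 0.996). Asic1, a proton-gated channel of sensory neurons, was at 1396 and 5744.5 normalized counts in control and Tlx3cko DRGs, a log2 fold change of 2.04, and Oprl1, the nociceptin receptor, at 260 and 598, a log2 fold change of 1.20. With 6 libraries and so many candidates, such correlations describe these libraries and are given without a p.

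The genes that lie next to Grxcr2 and Whrn on the chromosome did not pass the test, with 0 of 12 called against 4.25% of all genes, a count too small to set the neighbours apart. On the lower-coordinate side of Grxcr2, Prelid2 at 34.1 kb was at 17.1 ± 7.63 and 8.47 ± 3.03 normalized counts (SD, n = 3; log2 fold change -1.01, adjusted p = 0.481, edgeR). On the other side, Sh3rf2 at 54.6 kb had 3.63 and 2.16 normalized counts, and Lars and Rbm27 at 203 and 276 kb had log2 fold changes of -0.00 and -0.02. Kctd16 and Yipf5, at 1454 and 1766 kb, were at -0.29 and 0.06. Around Whrn, whose neighbours were read after its values were seen, Atp6v1g1 at 48.8 kb and Tmem268 at 62.8 kb had log2 fold changes of 0.03 and 0.22. The other neighbours of Whrn had low levels, with higher means in Tlx3cko DRGs that did not pass the test. Akna at 11.6 kb was at 53.9 ± 21.7 and 84.3 ± 12.8 normalized counts (log2 fold change 0.66, adjusted p = 0.301, edgeR). Orm2 at 49.0 kb was at 3.1 ± 2.71 and 15 ± 2.21 (log2 fold change 2.30, adjusted p = 0.173, edgeR), and Tnfsf15 at 231 kb at 2.62 ± 1.93 and 13.6 ± 4.05 (2.27, adjusted p = 0.114, edgeR). The log2 fold change of Orm2 ranged from 1.66 to 2.87 with each library left out, and was 6.94 against control replicate 3 alone.

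**Figure D4:**
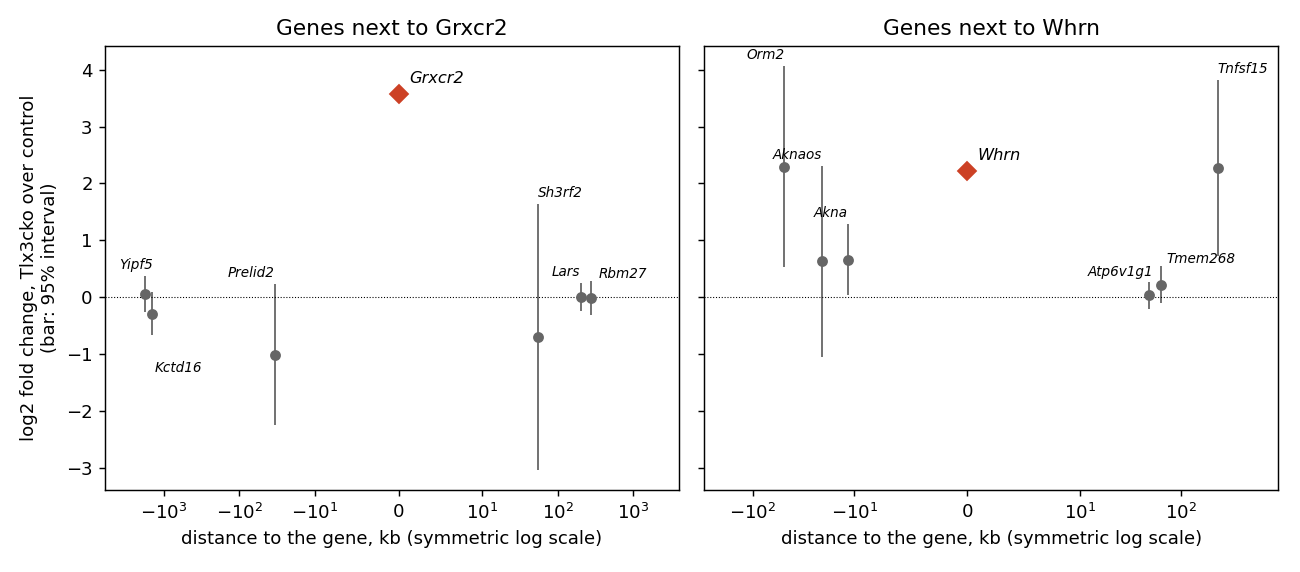
Log2 fold change (Tlx3cko over control) with its 95% interval for the 3 nearest tested genes on each side of Grxcr2 and of Whrn, against their distance in kb (symmetric log scale; lower coordinates to the left); diamonds mark Grxcr2 and Whrn themselves at distance 0, without intervals. Intervals of the 6 genes around Grxcr2 include 0, whereas those of 3 of the 6 around Whrn do not (Akna 0.04 to 1.28, Orm2 0.53 to 4.06 and Tnfsf15 0.72 to 3.82). None of the 12 passed the adjusted threshold. The intervals are not adjusted, and 14.5% of all genes tested had an unadjusted p under 0.05 (edgeR). Orm2 and Tnfsf15 had few counts in control DRGs (means of 3.10 and 2.62 normalized counts).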

How the data were processed

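RNA sequencing libraries of DRGs from 3 control and 3 Tlx3cko mice (NEBNext Ultra kit, paired-end) were analysed from the deposited table of raw read counts per gene, which the authors had not normalized. The submitters' processing notes name STAR 2.5.2a and mm10. The counting program, its annotation and its use of strand are not given in the sources used here. Of 47937 rows, 47729 had an Ensembl mouse gene identifier and 208 had none. Of the Ensembl rows, 47224 were matched to symbols, positions and exon lengths in GENCODE M21 (GRCm38). Totals ranged from 11458299 to 18775628 counts. Replicates differed by more than sampling noise (chi-square per degree of freedom 4.46 to 10.7) and were kept as separate samples. The study gives 3 independent samples per genotype.

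Genes with at least 10 counts in total (20006) were normalized by TMM (factors 0.994 to 1.01) and tested with edgeR 4.0.16 (glmQLFit, glmQLFTest) in R 4.3.3, at a Benjamini-Hochberg adjusted p under 0.05. Standard errors were derived from each fold change and its F value. The scripts were tested on simulated data. Alternatives were RLE and upper-quartile factors, no filter, filterByExpr, DESeq2 1.42.0, limma-voom (limma 3.58.1), the replicate number as a block, each library left out, control replicate 3 as the only control (spread from the Tlx3cko libraries), and an adjusted p under 0.01. Members and lists were chosen with earlier results of these data known. Named are the 9 genes, any called gene and the 2 most abundant per kilobase of each role in the wider list, the glutaredoxins, Tlx3, the 5 genes most correlated with Grxcr2 (log2 CPM, prior count 2) and 3 neighbours on each side. Other genes named, such as Triobp, Xirp2, Ptprq, the partners of whirlin (Adgrv1, Myo15, Eps8) and Clic5, the proprioceptor genes and the neighbours of Whrn, were chosen after their values were seen. Near-identical transcripts were searched with blastn 2.17.0+. Some genes of the wider list are not reported here.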

Additional observations from a re-analysis of the deposited data

How the results depend on the processing

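Of the 8 genes other than Grxcr2, 1 (Whrn) was called in every alternative. The count over all genes moved from 851 to 1529 without a filter on low counts, 546 with control replicate 3 as the only control, 418 at an adjusted p under 0.01 and 488 to 938 with each library left out (530 without control replicate 2, 488 without Tlx3cko replicate 2 and 512 without Tlx3cko replicate 3); it was 1151 with DESeq2. In the wider stereocilia list the count was 1 (Xirp2) without a filter and with control replicate 3 alone, and 0 to 1 with each library left out. The replicate numbers are only numbers, since same-numbered libraries had correlations of deviations of -0.13, -0.02 and -0.11 and no library correlated best with its own number; with the replicate block 770 genes were called, and it changed no call among the genes recomputed. The log2 fold change of Grxcr2 was 3.08 with control replicate 3 alone and 3.42 to 3.96 with each library left out, and that of Tlx3 was -0.377 with control replicate 3 alone (adjusted p = 0.175, edgeR).

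Genes near 0 changed sign, none of them called. With control replicate 3 alone log2 fold changes were -0.0505 for Tmc2, 0.303 for Tmie, -0.216 for Cdh23, -0.0910 for Tmc6, -0.184 for Clrn1, -0.00760 for Gpsm2, -0.0637 for Rdx, -0.0260 for Glrx2, 0.0462 for Glrx5 and 0.147 for Lars. With limma-voom they were -0.176 for Tmc2, 0.0710 for Tmie and 0.0123 for Lars, and with the replicate block -0.117 for Tmc2 and 0.00230 for Lars. For Glrx5 and Lars they were 0.00390 and 0.00489 with RLE, 0.00838 and 0.00907 with filterByExpr, and 0.00383 and 0.00515 with DESeq2. With each library left out, values ranged from -0.760 to 0.616 for Tmc2, -0.274 to 0.398 for Tmie, -0.0630 to 0.0937 for Cib2, -0.00536 to 0.371 for Myo7a, -0.0382 to 0.176 for Tomt, -1.37 to 0.0276 for Cib3, -0.0724 to 0.357 for Cdh23, -0.0151 to 0.135 for Tmc6, -0.188 to 0.174 for Clrn1, -0.0195 to 0.170 for Gpsm2, -0.165 to 0.0680 for Fscn1, -0.140 to 0.0455 for Tprn, -0.0371 to 0.223 for Glrx, -0.0254 to 0.0299 for Glrx5, -0.0183 to 0.144 for Yipf5, -0.0711 to 0.0949 for Lars, -0.0662 to 0.0543 for Rbm27 and -0.0669 to 0.142 for Atp6v1g1. The causes were not tested. Depth limits Grxcr1, Tmc1 and Tmc2, whose intervals were wide. With control replicate 3 alone, the spread comes from the Tlx3cko libraries and the lone control is assumed to vary like them.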
